A study of Mus musculus with 502 samples.

Results

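Transcripts of 10 genes of iron storage and antioxidant defence were followed in single immune cells of the mouse kidney. They were chosen as a gene group by symbol, with earlier results of these data known, as the rows of the count table named Fth1, Ftl1, Hmox1, Prdx1, Prdx5, Txn1, Txnip, Sod1, Sod2 and Gpx1, and all 10 were found among 46603 gene rows. The table covered 502 cells from kidneys of CD1 mice about 3 weeks old. Cells negative for propidium iodide and positive for Cd45, the surface protein shared by leukocytes, were sorted singly and their cDNA was made by a modified SmartSeq2 protocol. Kidneys were either processed fresh (75 and 81 cells) or kept whole in the organ transplant preservative HTS-FRS at 4 °C for 6 h (76 cells), 1 day (75 cells), 2 days (78 cells), 3 days (82 cells) or 4 days (35 cells).

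According to the methods, tissue pooled for a timepoint came from the same mouse, as both kidneys up to day 2 and as parts of the kidneys at day 3 and day 4, and kidneys were not perfused, so blood leukocytes could be among the cells. The labels named no animal. Each timepoint was therefore treated as 1 sample, and no test was made between timepoints. In the tests between cell groups described further on, fresh cells entered as 2 sums, 1 for each library number. The labels carried 3 library numbers of unstated meaning, called pools A, B and C here: fresh cells came from pools A (75 cells) and B (81 cells), 6 h and day 2 from pool A, day 1 and day 3 from pool B, and day 4 from pools A (2 cells), B (19 cells) and C (14 cells). Total counts on genes ranged from 1759 to 1895431 per cell, with a median of 695188.

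Ferritin is a hollow shell of heavy (Fth1) and light (Ftl1) chains that stores iron in a form that does not react with peroxide, and macrophages carry much of it because they recover iron from old red cells. Heme oxygenase 1 (Hmox1) opens heme and frees that iron. Superoxide dismutases in the cytosol (Sod1) and mitochondria (Sod2) turn superoxide into hydrogen peroxide, which glutathione peroxidase 1 (Gpx1) and the peroxiredoxins (Prdx1, Prdx5) reduce to water, and thioredoxin (Txn1) recharges peroxiredoxins while Txnip binds and inhibits thioredoxin.

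Both ferritin messages carry an iron-responsive element near their 5′ end, a hairpin to which iron regulatory proteins bind when iron is scarce, so that translation stops. The hairpins are shown because they are the sequence feature the ferritin pair shares and the other members lack, and because they place part of ferritin control after the RNA step that was measured here. A search of the annotated 5′ untranslated regions of GENCODE M21 (GRCm38) for a C, any 5 bases and the loop bases CAGTG found the element in 4 of 5 Fth1 and 2 of 3 Ftl1 coding transcripts, and in no coding transcript of the other 8 members. The Fth1 window lies at chr19:9982731-9982760 on the plus strand and the Ftl1 window at chr7:45459779-45459808 on the minus strand. Capitals mark the 5 bases searched for in the loop.
Fth1: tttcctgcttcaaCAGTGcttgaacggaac
Ftl1: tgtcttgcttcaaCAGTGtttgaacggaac
The windows were identical at 27 of 30 positions, the bases in capitals included.

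Cells were grouped by the counts of a single gene each. A cell entered the Cd3e, Cd79a, C1qb, Csf1r or S100a8 gate with at least 10 reads of that gene and under 10 of the others, except that Csf1r was free in the C1qb gate. The gates held 20.7, 14.7, 24.7, 14.3 and 6.37% of all cells in that order, while 21 cells were positive for several gate genes and 75 for none. Markers not used for gating were read in at least 25% of cells for 6 of 6 T cell genes in the Cd3e gate, 6 of 6 B cell genes in the Cd79a gate, 6 of 6 macrophage genes in the C1qb gate and 6 of 6 neutrophil genes in the S100a8 gate. The Csf1r gate held 4 of 6 monocyte or dendritic genes and 2 of 6 macrophage genes and is called by its gate gene. The paper describes a cluster absent from fresh samples, with few genes per cell, as most likely low-quality or apoptosing macrophages. It left that cluster out of its further analysis. The gates used here did not exclude such cells, and their part in the results was not tested. Levels are given as CPM, which are counts scaled to a total of 1000000 in each sum. Red cell genes summed to at most 2.32 CPM in any gate. For tests between gates, cells of 1 gate were added up within each timepoint and pool, here called a unit, where at least 5 cells were present. The result was 26 sums over 7 units, fitted together in edgeR with the unit as a block. The 7 units came from 6 timepoints, so that the fresh units are not separate samples. Where the units of gates are said not to overlap, the share of all genes without overlap is not given. A lack of overlap is thus a description of the members only. With timepoints as units, 4 of the 5 calls of members given below passed as well and that of Fth1 between the S100a8 and C1qb gates did not (adjusted p = 0.0798, edgeR).

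The ferritin messages were by far the most abundant members. Reads of Fth1 were found in 486 of 502 cells (96.8%, exact 95% binomial interval 94.9 to 98.2%) and reads of Ftl1 in 488 cells (97.2%). Gpx1 followed with 79.7% of cells, then Txnip with 61.8%, Prdx1 with 59.6%, Sod1 with 58.8%, Prdx5 and Txn1 with 54.2% each, and Sod2 with 24.3%. Hmox1 was read in only 58 cells (11.6%). Compared per kilobase of the principal transcript, Ftl1 reached 2710 CPM over all cells, Fth1 1452, Gpx1 783 and Sod2 16.9, the lowest of the 10. When each cell was thinned to 100000 counts, ferritin stayed at the top of this order and Hmox1 at the bottom. Binomial and Poisson intervals here cover counting error only.

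The ferritin light chain separated macrophage-like from lymphoid gates. In the C1qb gate Ftl1 stood at 2786 CPM in fresh pool B, 3149 at day 1, 3795 at day 3, 3891 at day 2, 4243 at 6 h, 4522 in fresh pool A and 5083 in pool B at day 4. In the Cd3e gate it stood at 492.6 CPM at day 3, 837 in fresh pool B, 895 in fresh pool A, 1035 at day 1, 1063 at 6 h and 1110 at day 2. The 2 sets of units did not overlap, and the C1qb gate was higher in 6 of 6 shared units. The fitted log2 difference was 2.39 (SE 0.29, adjusted p = 8.05e-06 by edgeR's quasi-likelihood test with Benjamini-Hochberg adjustment over all 12003 genes tested). Macrophage markers summed to 28.5 CPM in the Cd3e gate and 20257 CPM in the C1qb gate.

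Ftl1 was also higher in the C1qb gate than in the B cell-like Cd79a gate, whose 5 units lay between 647 and 1768 CPM. Macrophage markers summed to 583 CPM in the Cd79a gate, where 1 of the 6 was read in 41.9% of cells and 1 of 6 T cell genes in 43.2%, and their part in the result was not tested. The log2 difference was 1.82 (SE 0.30, adjusted p = 0.0007, edgeR), in 5 of 5 shared units. Between the Cd79a and Cd3e gates the difference of 0.56 (SE 0.29) did not pass the test (adjusted p = 0.523, edgeR). Among the myeloid gates Ftl1 had overlapping units, with 2797 to 4962 CPM in the Csf1r gate and 3289 to 5262 CPM in the S100a8 gate. The log2 difference from the C1qb gate was -0.17 (SE 0.29) for Csf1r and 0.27 (SE 0.35) for S100a8, neither of which passed the test. The order of levels was thus Cd3e, Cd79a and then the 3 myeloid gates, with the lymphoid pair and the myeloid neighbours not separated by the tests run.

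The heavy chain followed another order, with its highest level in the neutrophil-like gate. Fth1 stood at 4662 CPM (fresh pool A), 5239 CPM (6 h) and 5700 CPM (day 1) in the S100a8 gate, against 1921 to 3067 CPM in the 7 units of the C1qb gate. The difference was 1.52 on the log2 scale (SE 0.36, adjusted p = 0.0359, edgeR), in 3 of 3 shared units. That call rested on few units: without the 6 h unit the adjusted p was 0.402, and 4 of 7 omissions of a unit ended it. Fth1 was in turn higher in the C1qb gate than in the Cd3e gate (829.4 to 1395 CPM), by 1.40 (SE 0.29, adjusted p = 0.00384, edgeR) and in 6 of 6 shared units. Against the Cd79a gate (1264 to 2129 CPM) the difference of 0.69 (SE 0.31) did not pass (adjusted p = 0.278).

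**Figure D1:**
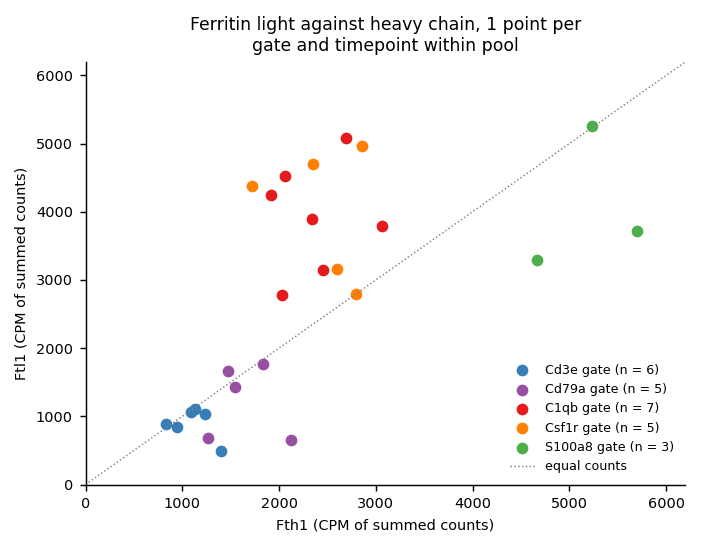
Each point is the summed level of Ftl1 (vertical axis, CPM) against Fth1 (horizontal axis, CPM) in one gate of one unit, coloured by gate; the dotted line marks equal counts of both genes. The 7 C1qb points lie above the line, with Ftl1 between 1.24 and 2.21 times Fth1, and the 3 S100a8 points lie furthest to the right, between 4662 and 5700 CPM of Fth1.

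The balance of the chains therefore varied by gate. The ratio of Ftl1 to Fth1 counts was 1.24 to 2.21 in the C1qb units (median 1.66) and 1.00 to 2.54 in the Csf1r units (median 1.74). It was 0.353 to 1.08 in the Cd3e units (median 0.931), 0.304 to 1.13 in the Cd79a units (median 0.928) and 0.652 to 1.00 in the S100a8 units (median 0.705). The C1qb units did not overlap with those of the Cd3e, Cd79a or S100a8 gates. This ratio was chosen after the values were seen and is given without a test. Its counts are not scaled to transcript length, so a ratio under 1 does not show that Fth1 messages outnumber those of Ftl1. Per kilobase of the principal transcript, over all cells of a gate, Ftl1 stood above Fth1 in every gate. The values were 958 against 713 CPM in the Cd3e gate, 1475 against 1084 in the Cd79a gate and 4191 against 3130 in the S100a8 gate. Together the chains made up 0.172 to 0.227% of all gene counts in Cd3e units, 0.482 to 0.777% in C1qb units and 0.795 to 1.05% in S100a8 units.

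Within single cells of a gate and unit, Spearman's rho between the CPM of Fth1 and Ftl1 varied from unit to unit. Over the units of at least 10 cells it was 0.129 to 0.673 in the 4 of the C1qb gate, 0.231 to 0.60 in the 3 of the Csf1r gate and 0.269 and 0.601 in the 2 of the S100a8 gate. It was -0.0172 to 0.202 in the 3 units of the Cd3e gate and -0.182 to 0.169 in the 3 of the Cd79a gate. The medians of the myeloid gates (0.476, 0.430 and 0.435) were higher than those of the Cd3e (0.0971) and Cd79a (0.0754) gates, but the lowest C1qb unit lay among the lymphoid ones. These are descriptions over cells of 1 sample, which share library and depth, and the difference between gates was not tested. In the 54 C1qb cells of day 3 the rho with the number of genes per cell was -0.454 for Fth1 and -0.333 for Ftl1. For the same genes in C1qb cells it was -0.358 and -0.430 at day 4 (pool B). It was 0.0401 and -0.0700 at day 1 and -0.0679 and 0.0679 at day 2.

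Hmox1 was read mostly in the myeloid gates, in few cells of each. It was read in 22 of 72 Csf1r cells (30.6%, interval 20.2 to 42.5%), 20 C1qb cells (16.1%, 10.1 to 23.8%) and 3 of 32 S100a8 cells (9.38%, 1.98 to 25.02%). In the Cd3e gate 2 cells (1.92%) and in the Cd79a gate 1 cell (1.35%) had a read, and the sums were 0 in 5 of 6 and 4 of 5 units. The C1qb units lay between 90.3 CPM (fresh pool B) and 412 CPM (day 4), the latter from a single cell. Because the lymphoid sums were mostly 0, no fitted fold is given here, and those in the closing section are not to be read as folds. Its adjusted p was 0.101 against the Cd3e gate and 0.298 against the Cd79a gate (edgeR), and 1.57e-09 and 0.000399 in DESeq2.

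Gpx1, which reduces peroxides with glutathione, was higher in the C1qb than in the Cd3e gate and highest in the Csf1r gate. In the Cd3e gate it stood at 133.9 CPM (day 3), 181.04 (fresh pool A), 200 (day 1), 303 (fresh pool B), 309 (6 h) and 607 (day 2). In the C1qb gate the lowest unit was 407 CPM (6 h), the median 889 CPM and the highest 1346 CPM (day 3). The ranges overlapped, but the C1qb gate was higher in 6 of 6 shared units, with a log2 difference of 2.02 (SE 0.47, adjusted p = 0.0111, edgeR). Omitting the day 1, day 3 or fresh pool A unit ended this call, with an adjusted p of up to 0.0948. In the Csf1r gate it stood at 1449 CPM (6 h), 1507 (fresh pool A), 1756 (day 1), 2280 (day 3) and 2758 (day 2). Those units did not overlap with the C1qb units, yet the difference of 0.92 (SE 0.47) did not pass (adjusted p = 0.575, edgeR).

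In edgeR, Fth1, Ftl1 and Gpx1 were thus the 3 members of 10 called higher in the C1qb than in the Cd3e gate, beside 4.82% of all genes tested called in either direction, 3.64% higher and 1.18% lower. DESeq2 called these 3 and Hmox1, beside 21.8% of all genes. The median log2 difference was 1.10 over the 10 members and 0.48 over all genes. In edgeR, Ftl1 was the 1 member called against the Cd79a gate (2.80% of all genes called, 2.05% higher and 0.750% lower) and Fth1 the 1 called between the S100a8 and C1qb gates (1.19% of all genes called, 0.558% higher and 0.633% lower). DESeq2 called Ftl1 and Hmox1 against the Cd79a gate, beside 20.7% of all genes. Between the S100a8 and C1qb gates the median log2 difference was 0.74 over the members and -2.83 over all genes. No member was called between the Cd79a and Cd3e gates (edgeR, 1.14% of all genes called), with 2 members under an unadjusted p of 0.05, beside 10.5% of all genes. None was called between the Csf1r and C1qb gates (edgeR, 0.108% called), again with 2 under an unadjusted p of 0.05, beside 9.31% of all genes. DESeq2 called 0 members in the former, beside 16.4% of genes, and 2 in the latter (Prdx5 higher and Txnip lower in the Csf1r gate), beside 13.7% of genes. With at least 10 cells in each sum in place of 5, none of the 5 calls passed in edgeR, with adjusted p of 0.0764 for Ftl1, 0.089 for Fth1 and 0.744 for Gpx1 against the Cd3e gate, 0.134 for Ftl1 against the Cd79a gate and 0.358 for Fth1 between the S100a8 and C1qb gates.

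**Figure D2:**
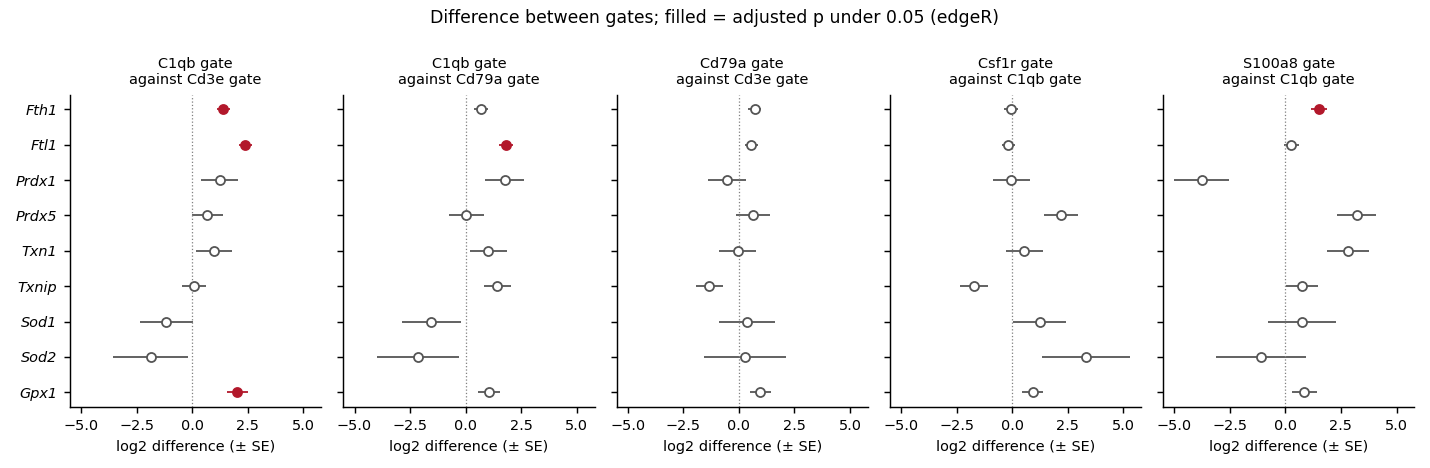
Log2 difference between gates for each member except Hmox1 (horizontal axis; bars are the SE of the edgeR fit), with 1 panel per comparison. Filled red points passed an adjusted p of 0.05: Fth1, Ftl1 and Gpx1 in the C1qb against Cd3e panel, Ftl1 against Cd79a and Fth1 in the S100a8 panel.

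Peroxiredoxins and thioredoxin had unlike levels in the myeloid gates, but none passed the test. Prdx5, a peroxiredoxin found in mitochondria, peroxisomes and cytosol, stood at 602, 1170 and 1479 CPM in the S100a8 units and at 64.1 to 295 CPM in the C1qb units. The sets did not overlap, and the log2 difference was 3.21 (SE 0.88, adjusted p = 0.0841, edgeR). In the Csf1r gate Prdx5 lay between 173.2 and 1397 CPM and was higher than in the C1qb gate in 5 of 5 shared units, by 2.21 (SE 0.77, adjusted p = 0.409). It was read in 86.1% of Csf1r cells, 84.4% of S100a8 cells, 47.6% of C1qb cells and 37.5% of Cd3e cells. Txn1 went the same way, with 770 to 1279 CPM in the S100a8 units against 51.001 to 454 CPM in the C1qb units (log2 difference 2.83, SE 0.95, adjusted p = 0.162).

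Prdx1, the abundant cytosolic peroxiredoxin, went the other way. It was read in 3 of 32 S100a8 cells (9.38%, interval 1.98 to 25.02%) and in 89 C1qb cells (71.8%, 62.99 to 79.5%). The S100a8 units stood at 0, 39.2 and 53.5 CPM and the C1qb units between 315 and 761 CPM, without overlap. The log2 difference of -3.77 (SE 1.23) did not pass (adjusted p = 0.154, edgeR). It lay within 1 SE of the median over all genes in this comparison (-2.83). DESeq2 called all 3 genes, with Fth1 the 4 members it called between the S100a8 and C1qb gates, beside 4.96% of genes higher and 32.3% lower, 37.3% in all (adjusted p = 0.000394 for Prdx5, 0.00184 for Txn1 and 0.000858 for Prdx1).

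Txnip, Sod1 and Sod2 passed none of the 5 edgeR tests between gates. Txnip was lower in the Csf1r than in the C1qb gate in 5 of 5 shared units (135.9 to 552 against 504 to 1330 CPM), with a difference of -1.72 (SE 0.62, adjusted p = 0.424). Against the Cd3e gate it was lower in the Cd79a gate in 5 of 5 shared units (-1.33, SE 0.60, adjusted p = 0.42). Sod1 was lower in the C1qb than in the Cd3e gate in 6 of 6 shared units, with a log2 difference of -1.17 and an SE as large (1.17). Sod2 units ranged from 0 to 193.8 CPM in the C1qb gate and from 0.335 to 319 CPM in the Csf1r gate, with 1 cell giving 99.8% of the counts in the C1qb unit of day 2 and the Csf1r unit of day 2 holding a single count. A missed threshold does not show that these levels were alike. In data simulated for the C1qb against Cd3e comparison the fit missed most genes that had been changed, and the other comparisons were not simulated.

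**Figure D3:**
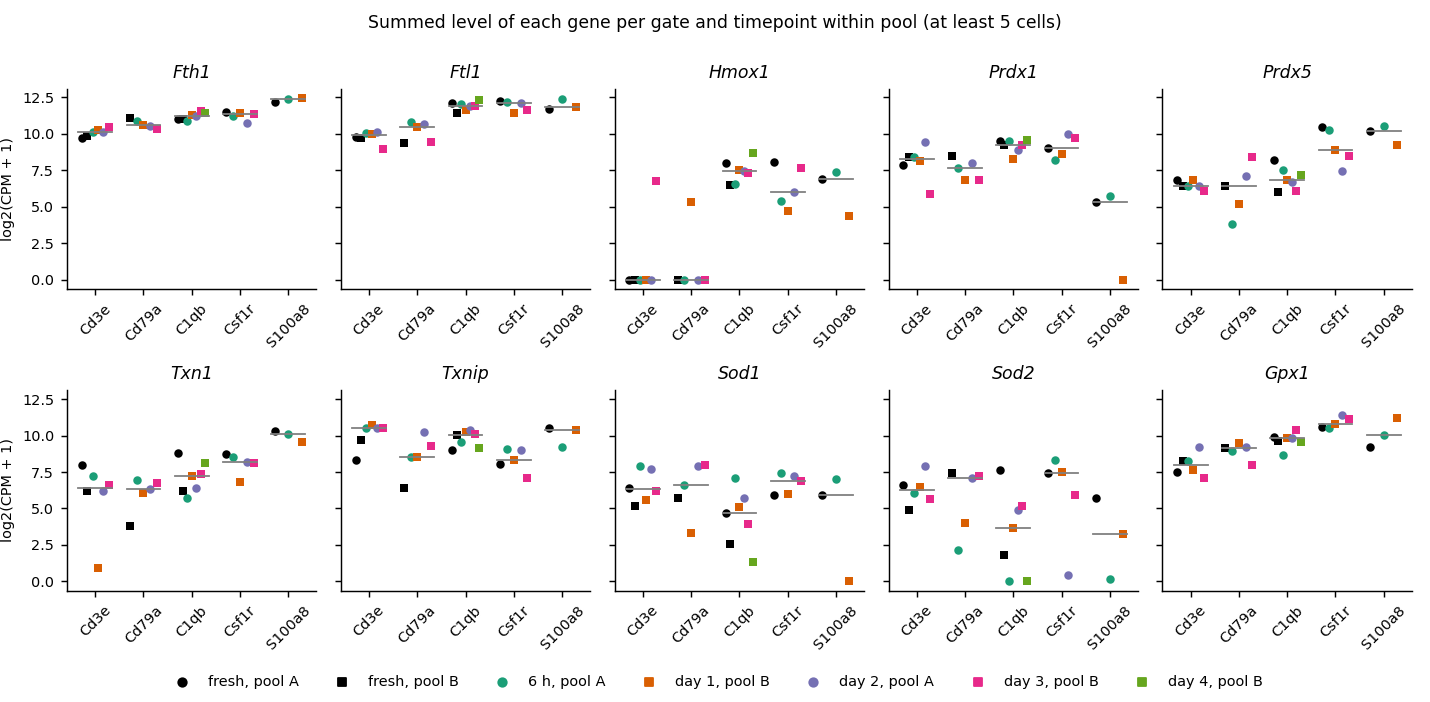
Summed level of each member (vertical axis, log2 of CPM + 1) by gate (horizontal axis); each point is a unit with at least 5 cells, its colour the timepoint and its shape the pool, and the grey line is the median. Ftl1 medians are higher in the 3 myeloid gates than in the Cd3e and Cd79a gates, the Prdx1 median is lowest in the S100a8 gate, and Hmox1 is at 0 in most lymphoid units.

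Across the 26 sums, mean log2 levels of the members were compared with those of 2344 genes read in at least 25% of cells. The gene most like Ftl1 was Tyrobp, an adaptor of myeloid receptors (Pearson r 0.833), and the gene most like Fth1 was Spi1, the myeloid transcription factor PU.1 (0.751), which was also the second for Ftl1 (0.832). Gpx1 was most like Plbd1 (0.848) and Cd300a (0.84), Prdx5 most like Alox5ap (0.834), which serves leukotriene synthesis, and Gm15931 (0.819). Txn1 was most like Lilr4b (0.796) and Tnfrsf1a (0.794), Hmox1 most like Tcirg1 (0.832) and Anxa5 (0.751), and Prdx1 most like Rpn1 (0.804) and Rps27l (0.768). Sod1 was most like Gm8172 (0.811) and the ribosomal protein gene Rpl27a (0.808), Sod2 most like Acsl5 (0.739) and Snx1 (0.708), and the second for Fth1 was Lyn (0.743). Txnip had no close partner, the nearest being Sesn1 (0.577) and Birc6 (0.496). The points share units, libraries and gates. Among the members, r was highest between Prdx5 and Txn1 (0.745), Ftl1 and Gpx1 (0.697) and Fth1 and Ftl1 (0.673).

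Other genes of iron handling and antioxidant defence were taken from a list of 46, of which 41 could be tested. Between the C1qb and Cd3e gates edgeR called 6 higher and none lower, beside 3.64 and 1.18% of all genes, with a median log2 difference of 1.43 over the list and 0.48 over all genes. DESeq2 called 11 higher and 2 lower, beside 15.8 and 5.95% of all genes. Hfe, a regulator of hepcidin, stood at 61.002 to 342 CPM in the C1qb units and at 0 in every Cd3e unit. Slc40a1, the iron exporter ferroportin, stood at 60.001 to 956 CPM against at most 0.243 CPM. Between the C1qb and Cd79a gates edgeR called 6 higher and none lower (2.05 and 0.750% of all genes) and DESeq2 10 higher and 1 lower (15.5 and 5.12%), among them Trf (transferrin, 291 to 805 CPM against 0) and Slc11a1 (the phagosomal metal transporter, 134.8 to 2133 CPM against at most 0.116). Between the S100a8 and C1qb gates edgeR called 2 higher and none lower (0.558 and 0.633% of all genes), Lcn2 (lipocalin 2, which binds iron-carrying siderophores, 168.3 to 4915 CPM against 0) and Slc7a11 (the cystine importer, 51.1 to 1320 CPM against at most 0.348). There DESeq2 called 4 higher and 13 lower, beside 4.96 and 32.3% of all genes, and the median log2 difference was -2.51 over the list and -2.83 over all genes. Between the Cd79a and Cd3e gates, and between the Csf1r and C1qb gates, edgeR called none, with 2 and 4 of 41 under an unadjusted p of 0.05, beside 10.5 and 9.31% of all genes. DESeq2 called 4 and 3 of 41 there, beside 16.4 and 13.7% of all genes.

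Preserved cells were compared with fresh cells of the same pool, as log2 ratios of CPM over summed counts, since the fresh cells of pools A and B differed. In these sums a smaller share of a cell type and less RNA per cell cannot be told apart. Fresh pool A held 29 Csf1r, 12 S100a8, 9 Cd3e, 7 C1qb and no Cd79a cells, while fresh pool B held 43 Cd3e, 16 Cd79a, 8 C1qb, 4 Csf1r and no S100a8 cells. With them Hmox1 (170.95 against 20.4 CPM), Txn1 (658 against 81.5 CPM), Prdx5 (906 against 117.1 CPM), Ftl1 (3967 against 1137 CPM), Sod2 (135.7 against 58.7 CPM) and Gpx1 (1093 against 526.4 CPM) were more than 2-fold higher in fresh pool A than in fresh pool B. These were 6 of 10 members past 2-fold, beside 47.3% of all genes. The part of the cell mixture in the ratios over all cells was not tested.

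At 6 h, 2 of 10 members were past 2-fold from fresh, beside 36.7% of 10346 genes (21.5% higher and 15.1% lower). Sod1 went from 72.2 to 204.8 CPM (1.51 on the log2 scale) and Hmox1 went from 170.95 to 42.2 CPM (-2.02). Hmox1 was read in 21 of 75 fresh cells and in 5 cells each at 6 h and day 2. There 1 cell held 57.3 and 50.7% of its counts. At day 2, 5 of 10 were past 2-fold, beside 45.5% of genes (27.1% higher and 18.4% lower): Sod1 at 196.8 CPM (1.45) and Txnip at 1254 against 461 CPM (1.44) were higher, and Prdx5 (906 to 106.9 CPM, -3.08), Txn1 (658 to 140 CPM, -2.23) and Hmox1 (170.95 to 41.2 CPM, -2.05) were lower. Day 2 had 1 S100a8 and 5 Csf1r cells, the gates in which Prdx5 and Txn1 were highest, against 12 and 29 in the fresh cells. Within each gate with at least 5 cells at both times, both genes were also lower at day 2 than in fresh cells of the pool. Prdx5 went from 1397 to 173.2 CPM in Csf1r cells, where 1 of 5 cells held 95.7% of the day 2 counts, from 295 to 105.2 CPM in C1qb cells and from 112.2 to 83.3 CPM in Cd3e cells. Txn1 went from 454 to 83.9 CPM in C1qb cells, from 249.7 to 72.6 CPM in Cd3e cells and from 429 to 285.8 CPM in Csf1r cells. The 6 h and day 2 comparisons share their fresh cells.

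The summed level of Sod1 was higher in preserved than in fresh cells of pool A in each gate that could be set side by side. It went from 83.8 CPM in fresh to 236.7 at 6 h and 208.9 at day 2 in Cd3e cells. In C1qb cells it went from 25.2 to 137.1 and 50.8 CPM, and in Csf1r cells from 60.5 to 170 and 146.8 CPM. In S100a8 cells it went from 58.98 to 129.3 CPM at 6 h. The cells behind these sums numbered from 5 to 29 per gate and timepoint, and the fresh C1qb and S100a8 values took 70.3 and 73.3% of their counts from 1 cell each. Depth and gene number moved with this contrast in pool A: the median total count per cell was 712369 in fresh cells, 962322 at 6 h and 913832 at day 2, the median number of genes 2649, 2136 and 1731, and the 18S share of counts 5.79, 3.92 and 4.36%. Their part in the result was not tested. Over all cells of the pool the ratio without the cell of highest count in each sum was 1.49 at 6 h and 1.40 at day 2. Over all cells the pool B timepoints did not share this course, with 51.2 CPM in fresh cells, 37.1 at day 1, 59.4 at day 3 and 81.6 at day 4. Of the day 4 counts 1 cell held 79.9%. Within gates of pool B the levels went both ways. In Cd3e cells Sod1 stood at 35.3 CPM in fresh cells and 47.1 and 73.5 CPM at day 1 and day 3. C1qb cells stood at 5.01, 33.9 and 14.6 CPM at these times and at 1.54 CPM at day 4. Csf1r cells went from 184.8 CPM in 4 fresh cells to 62.5 and 116.1 CPM. Cd79a cells stood at 52.5, 9.02 and 252.7 CPM, and 1 cell held 93.9% of the day 3 counts. Preservation time and pool differ together here and cannot be told apart.

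In pool B the levels of Fth1, Ftl1, Hmox1, Gpx1 and Txn1 over all cells were higher in preserved than in fresh cells. At day 1, 2 of 10 were past 2-fold (Hmox1 and Txn1, beside 41.03% of 9492 genes, 20.1% higher and 20.98% lower). At day 3, 3 of 10 were (Ftl1, Hmox1 and Gpx1, beside 43.5% of genes, 21.1% higher and 22.4% lower). At day 4, 4 of 10 were (Ftl1, Hmox1 and Txn1 higher and Sod2 lower, from 58.7 to 22.5 CPM, beside 55.9% of genes, 33.2% higher and 22.8% lower). All Sod2 counts at day 4 came from 1 of 19 cells. Ftl1 went from 1137 CPM in fresh cells to 2272, 2908 and 4444 CPM, and Hmox1 from 20.4 to 102.6, 127.9 and 343 CPM. Fth1 went from 1556 CPM to 2433, 2731 and 2482 CPM, under 2-fold in each. Gpx1 went from 526.4 CPM to 914, 1146 and 907 CPM, and Txn1 from 81.5 to 176.9, 158.3 and 220.6 CPM. C1qb cells numbered 8 of 81 in the fresh cells and 22 of 75, 54 of 82 and 10 of 19 at these times. Cells of the low-quality cluster that the paper describes could be among those counted after preservation, and their part was not tested. Within the C1qb gate Ftl1 stood at 2786 CPM in the 8 fresh cells and at 3149, 3795 and 5083 CPM afterwards, and Gpx1 at 774 CPM and then 890, 1346 and 768 CPM, under 2-fold in each. There Txn1 stood at 70.9 CPM in fresh cells and at 148.9, 162.4 and 273.1 CPM afterwards, past 2-fold in each. Its share of cells with reads was 75% in fresh cells and 54.5, 51.9 and 60% afterwards. The median over single cells was 52.7 CPM in fresh cells and 39.2, 20.1 and 89.4 CPM afterwards. Hmox1 stood at 90.3 CPM and then between 160.04 and 412 CPM. Its share of cells with reads was 25% in fresh cells and 22.7, 11.1 and 10% afterwards. From 1 cell came 85.7% of the fresh Hmox1 counts and all of those at day 4. The higher sums were not found in every gate of pool B. In Csf1r cells Txn1 stood at 505 CPM in 4 fresh cells and at 113.4 and 281.5 CPM at day 1 and day 3. In Cd3e cells it stood at 71.2 CPM in fresh cells, 0.91 CPM at day 1 (1 of 7 cells with reads) and 95.6 CPM at day 3. In Cd3e cells Gpx1 stood at 303 CPM in fresh cells and 200 and 133.9 CPM at day 1 and day 3, and Ftl1 at 837, 1035 and 492.6 CPM. Hmox1 in Csf1r cells stood at 250.6 CPM in fresh cells and 25.5 CPM at day 1, from 1 cell each. The median number of genes per cell in pool B was 1843 in fresh cells, 1966 at day 1, 1672.5 at day 3 and 1130 at day 4, and the median mitochondrial share of counts 3.88, 3.15, 3.02 and 4.60%. Their part in these ratios was not tested. A single cell held 84.7% of the Hmox1 counts at day 4, and without the cell of highest count in each sum the log2 ratio of 4.07 was 2.44. With all fresh cells of both pools in the denominator, Txn1 was lower than fresh at day 1 (-1.12), day 3 (-1.28) and day 4 (-0.80), the opposite of its ratios within the pool (1.12, 0.96 and 1.44).

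**Figure D4:**
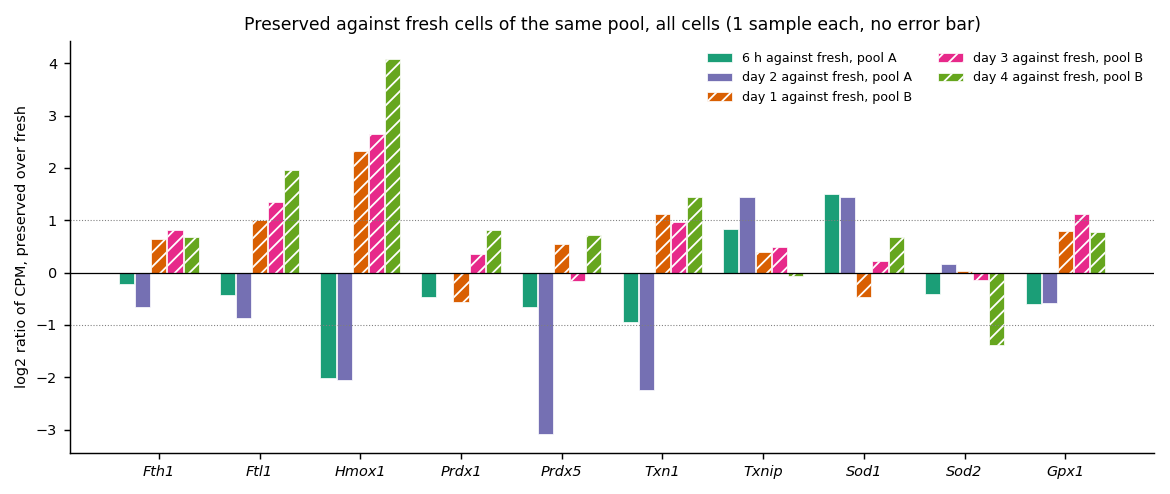
Log2 ratio of CPM in preserved over fresh cells of the same pool (vertical axis) for the 10 members, over all cells; each bar is 1 sample against 1 sample without error, plain bars are pool A and hatched bars pool B, and dotted lines mark 2-fold. Sod1 stands above 1 in both pool A comparisons, and Hmox1 lies below -2 in pool A and above 2 in pool B.

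Comparisons inside a gate with at least 10 cells on both sides were possible for 3 pairs. In Csf1r cells at 6 h, 3 of 10 members were past 2-fold (41.7% of genes, 23.9% higher and 17.8% lower): Sod1 (1.49) and Txnip (1.03) higher and Hmox1 (-2.72) lower, while Fth1 (-0.28), Ftl1 (-0.08) and Gpx1 (-0.06) were close to fresh. The Hmox1 counts at 6 h came from 1 of the 14 cells. In S100a8 cells at 6 h, 2 of 9 with enough counts were past 2-fold (51.1% of genes, 26.02% higher and 25.1% lower), Sod1 higher (1.13) and Txnip lower (-1.28). In Cd79a cells at day 1, 7 of 9 were past 2-fold (48.3% of genes, 24.2% higher and 24.1% lower). There Ftl1 (1.15), Txn1 (2.38) and Txnip (2.12) were higher, and Prdx1 (-1.66), Prdx5 (-1.24), Sod1 (-2.54) and Sod2 (-3.50) were lower, over 14 and 16 cells. The fresh Cd79a sum took 98.1% of its Txnip counts and all of its Txn1 counts from 1 cell, and the day 1 sum took 98.6% of its Sod1 counts and all of its Sod2 counts from 1 cell.

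**Figure D5:**
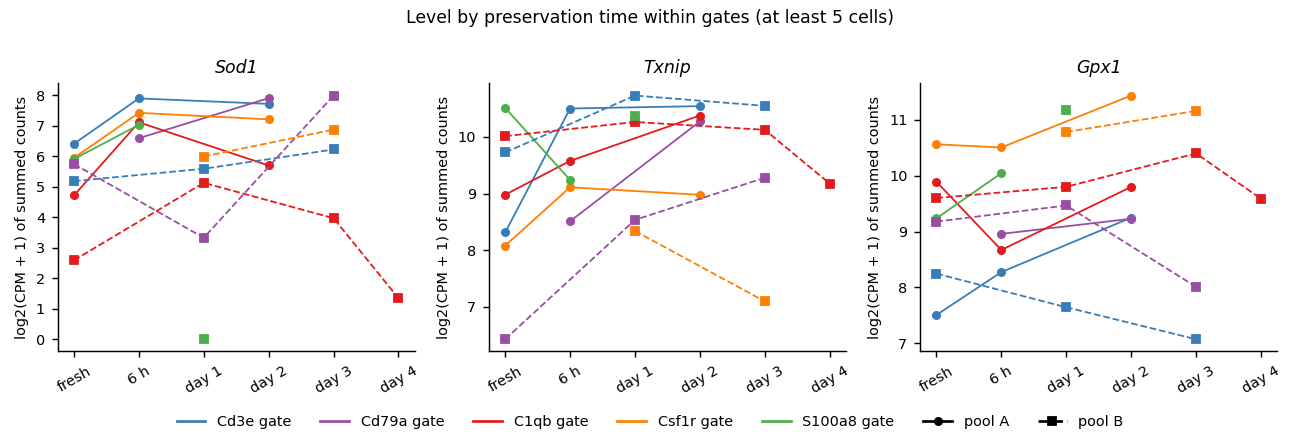
Level of Sod1, Txnip and Gpx1 (vertical axes, log2 of CPM + 1) by preservation time (horizontal axis) inside each gate, for units of at least 5 cells; solid lines with circles are pool A and dashed lines with squares pool B. In pool A every Sod1 line with a fresh point is higher at 6 h, while pool B shows no common course.

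Txnip inside gates was higher than fresh in most units of both pools. In Cd3e cells it stood at 317 CPM in fresh pool A and at 1449 and 1492 CPM at 6 h and day 2, and at 846 CPM in fresh pool B and 1698 and 1497 CPM at day 1 and day 3. In Cd79a cells of pool B it stood at 85.1 CPM in fresh cells and 370 and 621 CPM at day 1 and day 3. Opposite to these, S100a8 cells went from 1461 to 604 CPM at 6 h, C1qb cells of pool B from 1033 to 578 CPM at day 4, and Csf1r cells of pool B from 899.8 CPM, all from 1 of 4 fresh cells, to 323 and 135.9 CPM at day 1 and day 3. In the fresh Cd3e cells of pool A 1 cell of 9 held 92.1% of the Txnip counts.

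Of the other 46 pathway genes, 9 of 41 with enough counts were past 2-fold at 6 h, all lower, beside 36.7% of all genes. At day 2 this held for 12 of 36 (4 higher), beside 45.5% of all genes. It held for 16 of 37 at day 1 (12 higher, beside 41.03%), 17 of 36 at day 3 (12 higher, beside 43.5%) and 17 of 26 at day 4 (13 higher, beside 55.9%). The largest increase at day 1, day 3 and day 4 was that of Slc40a1, from 17.97 CPM in fresh pool B to 391, 390 and 674 CPM, beside the larger share of C1qb cells noted above. The largest decreases were in Slc7a11 at 6 h (110 to 7.68 CPM), Fech, the last enzyme of heme synthesis, at day 2 (52.7 to 1.56 CPM), Txnrd2, the mitochondrial thioredoxin reductase, at day 1 and day 3 (86.4 to 10.3 and 3.18 CPM), and Nfe2l2, the transcription factor NRF2, at day 4 (197.8 to 20.2 CPM). The largest increases in pool A were Aco1 at 6 h (38.9 to 70.5 CPM) and Txnrd2 at day 2 (9.55 to 29.1 CPM).

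The counting ignored strand, and 3 members overlap genes on the opposite strand: Ftl1 with Gm10252, Prdx5 with Trmt112 and Txnip with Gm15441. Reads of these pairs cannot be assigned to a strand. Ftl1 also overlaps Gm22133 on its own strand. Rows of near-identical relatives held few reads, with 21 for Fth.ps2 beside 751838 for Fth1, 30 for Ftl2 beside 909369 for Ftl1 and 40 for Txn.ps1 beside 91310 for Txn1.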

How the data were processed

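The authors trimmed reads to 75 bp with fastx_trimmer, removed duplicates with picard, aligned them with STAR to the Ensembl GRCm38 build and counted them per gene with HTSeq without strand; their versions were not given, and cells under 1000 reads were dropped. The deposited table holds raw counts for 502 cells, each GEO sample being 1 cell. Spike-in and vector rows (0.000185% and 0.139% of counts) were left out. The 10 members, the pathway list and the gates were chosen with earlier results of these data known.

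Cells were gated as described above. Counts per gate and unit were tested with edgeR 4.0.16 (quasi-likelihood test, TMM, filterByExpr, unit as block, 12003 genes, threshold 0.05). P-values measure the spread between units, which may be technical. Time ratios have no test and cover genes whose count reached 50 in each sum. Named pathway genes were the 2 largest increases and decreases past the threshold per gate comparison and the largest of each per time comparison; for likeness, the 2 highest Pearson correlations were named. The test was checked on data simulated for the C1qb against Cd3e comparison, where it made no false call and missed most changed genes. Alternatives were DESeq2 1.42.0, its size factors, no filter, other gates, cell minimums and units, no block, depth and 18S filters, and omission of each unit. No column of authors' comparisons was present or used. Sequences come from GENCODE M21. Scripts used Python 3.11.15 and R 4.3.3.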

Additional observations from a re-analysis of the deposited data

Results flagged for a closer look

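In 40 sets of 5 to 7 units of 1 member in 1 gate, 5 held a unit whose gap to its nearest neighbour was past Dixon's 95% critical value. The gap was taken on log2 of CPM + 1. Chance alone flags about 1 in 20 where values are normally distributed, which was not shown for these sums. In the Cd3e gate, Ftl1 stood at 492.6 CPM at day 3 against 837 to 1110 CPM in the other 5 units, Hmox1 at 110 CPM at day 3 against 0 in the others, and Txn1 at 0.91 CPM at day 1 against 71.2 to 250 CPM. In the Cd79a gate, Hmox1 stood at 39.6 CPM at day 1 against 0 in the others, and Txn1 at 12.6 CPM in fresh pool B against 65.8 to 121.7 CPM. These units held 7, 7, 7, 14 and 16 cells, and both Hmox1 values and both Txn1 values came from a single cell with reads. With all other units at 0, any read in 1 unit meets this criterion, so both Hmox1 entries say no more than that 1 unit held reads.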

How the results depend on the processing

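Of 900 values for the members between gates, 823 kept their direction and their side of the threshold, 15 lost a call, 12 gained one and 50 changed sign, none of these being a call. The share of genes called between gates moved more. In the order C1qb against Cd3e, C1qb against Cd79a, Cd79a against Cd3e, Csf1r against C1qb and S100a8 against C1qb, it was 4.82, 2.80, 1.14, 0.108 and 1.19% of the 12003 genes tested. Over the same 12003 genes the calls came to 21.8, 20.7, 16.4, 13.7 and 37.3% by DESeq2, 9.94, 5.17, 1.98, 0.517 and 2.88% with no unit block, and 0.866, 0.725, 0.308, 0.0250 and 0.0750% with at least 10 cells per sum. For the last 2 comparisons they were 0.175 and 0.558% with a gate at 100 reads, and 0% (edgeR, 638 genes under an unadjusted p of 0.05) and 0.375% with the gate gene of highest count. Omitting 1 unit gave 2.91 to 4.81, 1.49 to 2.77, 0.691 to 1.14, 0.04999 to 0.108 and 0.317 to 1.19%. The lowest came without the day 1 unit in the first 3 comparisons and without the 6 h unit in the others (equally without day 2 for Csf1r), and omitting the day 2 or a fresh unit also moved some of them over 1.5 times. The causes were not tested.

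Signs changed for the log2 differences given here, and the causes were not tested. Cd79a against Cd3e, Txn1 (-0.054) was 0.15 with DESeq2 size factors and by DESeq2, 0.063 with a gate at 1 read, 0.16 with the gate gene of highest count and 0.20 with timepoints as units. Prdx5 (0.64), Sod1 (0.38) and Sod2 (0.28) were -0.17, -0.23 and -0.17 with a gate at 100 reads, Sod1 was -0.21 with at least 10 cells and Sod2 -0.62 with timepoints as units. C1qb against Cd3e, Txnip (0.086) was -0.042 without the filter, -0.029 with a gate at 1 read, -0.28 with at least 10 cells, -0.054 with timepoints as units and -0.028 with no block. Csf1r against C1qb, Fth1 (-0.046) was 0.017 without the filter, 0.17 with a gate at 1 read, 0.030 at 100 reads, 0.22 with the gate gene of highest count and 0.11 with at least 10 cells. There Prdx1 (-0.032) was 0.022 without the filter and 0.35 with at least 10 cells, and Ftl1 (-0.17) was 0.16 with the gate gene of highest count and 0.11 with at least 10 cells. Fitted Hmox1 differences, which depend on zeros, changed sign to 1.75 (Csf1r against C1qb, gate gene of highest count), -2.96 and -0.48 (S100a8 against C1qb, at least 10 cells and no block) and -0.87 (Cd79a against Cd3e, no block).

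Omitting 1 unit also changed signs. C1qb against Cd3e, Txnip ranged from -0.089 to 0.31, and C1qb against Cd79a, Prdx5 from -0.40 to 0.86. Cd79a against Cd3e, the ranges were -5.16 to 7.45 for Hmox1, -0.12 to 0.99 for Prdx5, -0.58 to 0.39 for Txn1, -0.15 to 0.74 for Sod1 and -0.61 to 1.01 for Sod2. Csf1r against C1qb, Fth1 ranged from -0.22 to 0.15 and Prdx1 from -0.13 to 0.13. S100a8 against C1qb, the ranges were -0.063 to 0.56 for Ftl1, -2.71 to 0.98 for Hmox1, -0.25 to 1.27 for Txnip and -0.13 to 1.85 for Sod1. Of 621 time ratios, 574 kept within the spread allowed, 45 moved past it and 2 past 2-fold reversed, Txn1 at day 1 (-1.12) and day 4 (-0.80) with all fresh cells. Thinned shares left the interval of the full share for Sod1 over all cells and in C1qb cells (38.2%). The unit block paired gates within units. By replicate number, no paired analysis was possible because the labels carry none.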
